A study of Homo sapiens with 8 samples.

Results

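Retinoic acid (RA), the ligand of the nuclear RA receptors, was added to NTera2/D1 cells depleted of RNF20, and the transcript levels were compared with those of RNF20-depleted cells given the solvent DMSO. The comparison takes the 4 arrays titled with siRNF20 out of the 8 arrays of the series: 2 with RA and 2 with DMSO. NTera2/D1 is an established line of human embryonal carcinoma, the stem cell of testicular germ cell tumours. RNF20 is a ubiquitin ligase that works with its partner RNF40 to attach a single ubiquitin to histone H2B. The RA arrays came from cells given 10 µM RA and transfected with siRNF20, and the DMSO arrays from cells given DMSO and transfected with siRNF20 so that RNF20 depletion is shared by both sides. The series' control arm carried siLacZ, aimed at a bacterial gene, with RA or DMSO in the same way. RA lasted 72 hours, all cells are of 1 line, and each condition was grown as biological duplicates. The titles number them GF117 and GF120, and the labels do not say what these numbers stand for. The labels do not say whether siRNF20 was a single sequence or a pool.

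RA enters the nucleus on cellular binding proteins and binds RARA, RARB or RARG, each paired with an RXR receptor on paired hexamers in the DNA. Among the textbook targets are its own receptor RARB, the enzyme CYP26A1 that breaks RA down, and the 3′ genes of the HOX clusters, which set position along the body axis. In embryonal carcinoma cells RA ends self-renewal and leads towards neural cells, and NTera2 is widely used to make human neurons.

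The promoter of RARB is shown because it holds the classical RA response element and RARB had one of the highest differences here. The sequence is RefSeq's, build GRCh38.p14, chr3:25428013-25428312 on the plus strand, from 250 bases before to 50 bases after the annotated start. The capitals mark a direct repeat of hexamers with 5 bases between them (DR5).

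RARB promoter: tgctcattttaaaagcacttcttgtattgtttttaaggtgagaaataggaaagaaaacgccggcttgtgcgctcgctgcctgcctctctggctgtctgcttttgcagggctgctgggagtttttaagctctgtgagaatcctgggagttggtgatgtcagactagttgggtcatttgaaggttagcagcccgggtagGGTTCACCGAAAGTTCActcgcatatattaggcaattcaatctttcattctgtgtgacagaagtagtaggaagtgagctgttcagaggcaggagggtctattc

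The repeat starts 53 bases before the start. Direct repeats of hexamers that read AGGTCA or AGTTCA or GGGTCA or GGTTCA, in any pairing and on both strands, were searched in the same window of every tested gene with a RefSeq promoter. With a spacer of 5 bases (DR5) they were in 10 of 14345 promoters (0.0697%), with 2 bases (DR2) in 4 (0.0279%) and with 1 base (DR1) in 17 (0.119%). Of the 260 promoters of genes called higher with RA, 1 held a DR5, that of RARB. Of the 296 promoters of genes called lower, 1 held a DR2, that of SEMA4A. The letters of such a repeat in this window were thus found in single members of the responding genes. Promoters were at hand for 260 of the 335 genes called higher and 296 of the 399 called lower. With repeats this rare, the search cannot decide whether they mark the responding genes as a group.

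RNF20 itself checked the labels. On the siRNF20 arrays its log2 intensity was 6.48 and 5.98 with DMSO and 6.27 and 5.89 with RA, against 8.24, 8.09 and 8.10 on 3 siLacZ arrays, and the groups did not overlap. Within the siRNF20 arrays RNF20 differed by -0.15 between RA and DMSO (SE 0.23, limma adjusted p = 0.856). RNF40, its partner, differed by 0.22 (SE 0.19, adjusted p = 0.699). The cell type label was also checked. All 12 embryonal carcinoma markers lay above the median gene with DMSO, and their median was 10.02 and 10.18 with DMSO and 8.83 and 8.79 with RA, with 7 of the 12 called lower. Of the markers of fibroblasts (7 measured), blood (6), endothelium (5), hepatocytes (5), trophoblast (5) and muscle (6), at most 2 of any list lay above the median gene. In those lists 2 genes were called, the endothelial CDH5 (higher) and THY1 (lower), which embryonal carcinoma cells also carry. In bulk RNA, fewer cells of a type and less RNA per cell cannot be told apart.

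The array of siLacZ cells with RA titled GF117 stood apart from the other 7. Its log2 values correlated with theirs at 0.135 to 0.239, against 0.908 to 0.975 among the 7, and its median for 16 reference genes was 6.94 against 10.47 to 10.95. It was left out of the fit. Rows of the deposited table, each a stretch of an exon, were combined to 18732 genes by the median, and a gene was called where its adjusted p fell below 0.05 in limma over the remaining 7 arrays. The signal of each array limits precision through background: a value at or below 3.97 (log2), the median row of the table, is termed dim here, and no fold is given for a named gene with a dim side. Rows dim on average over the 7 arrays were left out, and row counts given below are of the kept rows. For a gene with a dim side, rows were kept through its brighter arrays. Agreement among its kept rows thus follows in part from that filter.

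RA changed 734 of the 18732 genes (3.92%) in RNF20-depleted cells. Of these, 335 were higher (1.79%) and 399 lower (2.13%). The median difference was 1.55 (log2) for the genes called higher and -1.20 for those called lower, against -0.03 over all genes. The calls upwards were of larger measured size: 96 genes were at least 4-fold higher and 45 at least 4-fold lower, and 41 against 8 passed 8-fold. Fold counts here include genes with a dim side, whose sizes are limited by background. Of all genes called, 25 higher ones had a dim DMSO mean and 15 lower ones a dim RA mean. At least 2-fold and called were 579 genes (3.09%), of which 293 were higher (1.56%) and 286 lower (1.53%). Without adjustment, 2868 of the 18732 genes had a limma p below 0.05.

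All 734 differences had the same sign within GF117 and within GF120, and none of the 734 had overlapping groups. The 734 were called on these same arrays, so both traits follow largely from the selection. Over all genes, groups without overlap were common, at 18.1% higher and 24.8% lower. Across the 18732 genes, which are not independent replicates, the 2 within-number differences had a Pearson r of 0.62. A called gene rested on a median of 14 rows, against 12 for all genes, and 13 rested on a single row. With a single RA or DMSO array left out the count was 557 without RA GF117, 568 without RA GF120, 330 without DMSO GF117 and 362 without DMSO GF120. Genes called higher then numbered 211, 335, 201 and 190, and genes called lower 346, 233, 129 and 172, so which direction held more genes turned with the array left out. Across those fits and the 2 that leave out a siLacZ DMSO array, 263 genes (150 higher, 113 lower) kept their call every time. Unless an array is named beside it, each gene described by name below as having risen or fallen is one of these 263, while the counts of gene lists are those of the fit to all 7 arrays. With the array that stood apart put back, no gene passed (501 at an unadjusted p below 0.05, smallest adjusted p 0.212).

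**Figure D1:**
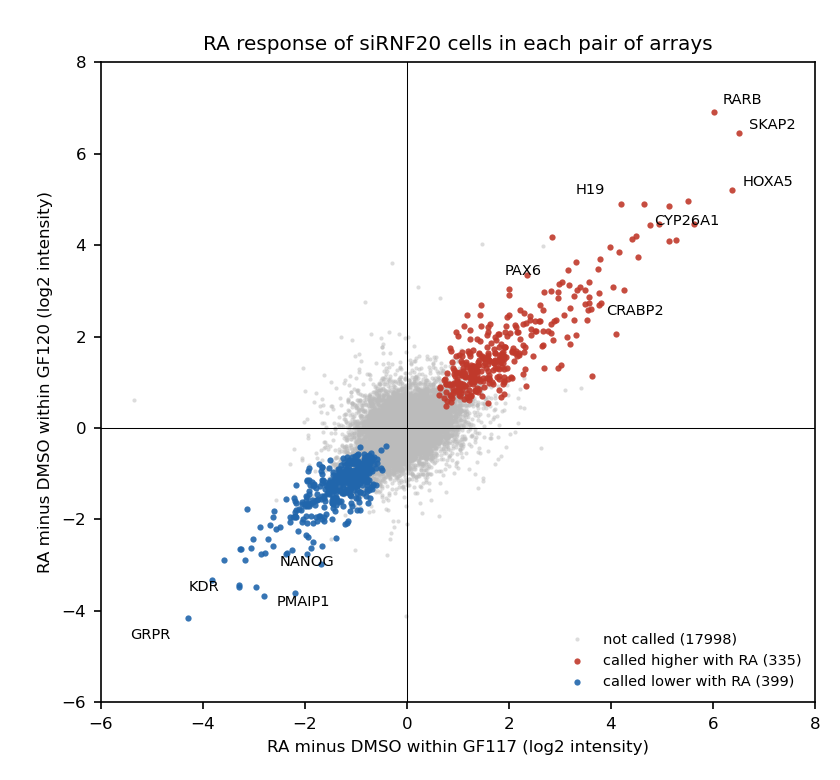
Each point is a gene, placed by its RA minus DMSO difference (log2 intensity) in siRNF20 cells within GF117 (horizontal) and within GF120 (vertical); red points are the 335 genes called higher, blue points the 399 called lower, and grey points the rest. SKAP2 and RARB lie farthest to the upper right, GRPR to the lower left, and every called gene lies in a quadrant where both differences have the same sign.

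The highest measured difference was that of SKAP2, a Src-associated adaptor whose gene neighbours the HOXA cluster. It read 3.88 and 3.73 with DMSO and 10.39 and 10.19 with RA, a difference of 6.48 (SE 0.23, adjusted p = 4.48e-06). The DMSO arrays were dim and the RA arrays among the bright genes, and 16 of its 17 rows were higher with RA in both pairs of arrays. The next ranks were held by RARB (6.46), HOXA5 (5.79), MEIS2 (5.24), HOXA2 (5.06), SEMA3C (5.0), CYP26A1 (4.77), HOXB2 (4.70), LOC100129455 (4.70), ROBO2 (4.62), IGFBP5 (4.6), H19 (4.54), BCO1 (4.35), LAMP5 (4.28) and FLJ12825 (4.13). Of the 15, 9 had a dim DMSO mean, so background limits the size of their difference and their order among themselves carries no weight. LOC100129455, on 2 rows, was at 2.86 with an offset of 16 added before the logarithm. The set holds RA-pathway genes, homeobox genes and their transcribed neighbours, and genes of axon guidance. LAMP5, a membrane protein of neuronal endosomes, rose from 5.29 and 6.21 to 9.72 and 10.35 (19.4-fold, SE 0.40 on the log2 scale).

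The lowest measured difference was that of GRPR, the receptor of gastrin-releasing peptide. It read 7.60 and 8.03 with DMSO and 3.31 and 3.86 with RA, a difference of -4.23 (SE 0.30, adjusted p = 9.26e-05). All 5 of its kept rows (of 6) fell in both pairs. KDR, the VEGF receptor, fell from 7.33 and 7.18 to 4.04 and 3.69 (-3.39, SE 0.27), with 36 of 38 rows lower in both pairs. Of the lowest 15, 8 had a dim RA mean, GRPR and KDR among them, and have no order among themselves. The set also held ETS1 (-3.24), PMAIP1 (-3.24), CHST4 (-3.22), CR2 (-3.03), CRIPTO3 (-2.97, on 1 row), MGAT4C (-2.91), TM4SF18 (-2.84), SPRY4 (-2.82), NANOG (-2.76) and DPPA2 (-2.73). CR2, the complement receptor CD21, went from 7.13 and 7.24 to 3.95 and 4.35, and CHST4, a sulfotransferase, from 7.87 and 7.71 to 4.91 and 4.22. The other members of that set depended on single arrays: VSNL1 (-3.57) passed with all arrays but not without DMSO GF117 (adjusted p = 0.0507), D21S2088E (-3.37) not without RA GF120 (0.134) or DMSO GF117 (0.223), and IDO1 (-2.95) not without RA GF120 (0.0584) or DMSO GF117 (0.116). With a stricter filter on dim rows the difference of IDO1 was 0.04 and that of TM4SF18 -1.62, and with the mean over rows that of CHST4 was -2.14. With no filter on dim rows CRIPTO3 (-1.92, adjusted p = 0.0843) and MGAT4C (-1.57, 0.0513) lost the call, and with an offset of 16 D21S2088E did (-1.79, 0.0682), where IDO1 was at -1.86.

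**Figure D2:**
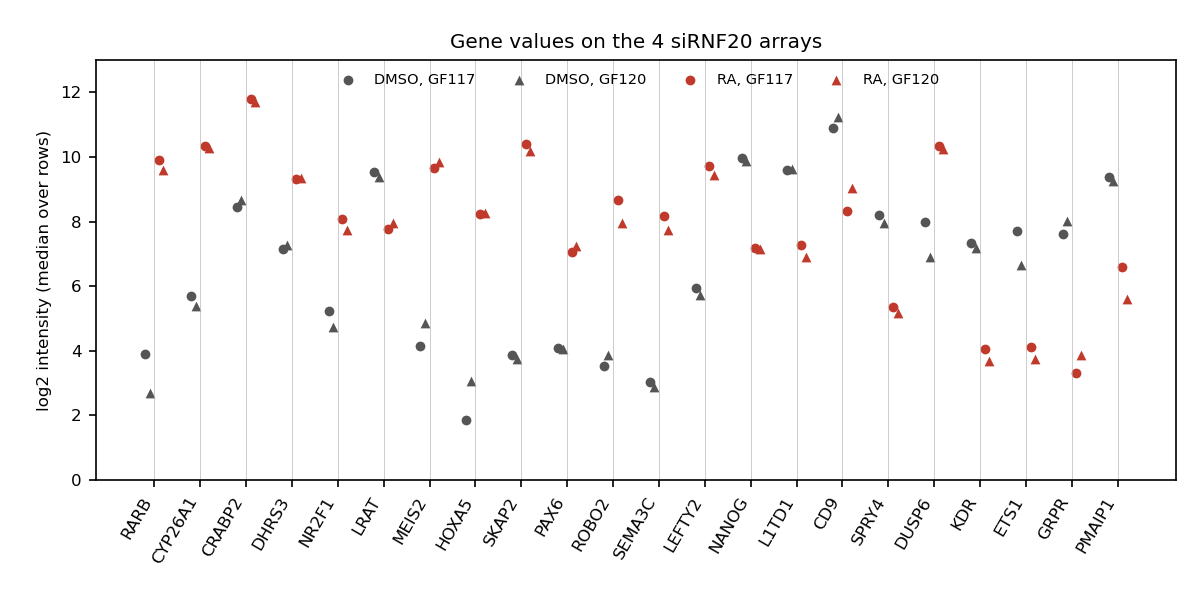
The vertical axis gives the log2 intensity of 22 genes, the median over their rows, on the 4 siRNF20 arrays; grey marks DMSO, red RA, circles GF117 and triangles GF120. For each of these genes both RA points lie on the same side of both DMSO points, from SKAP2 (3.88 and 3.73 with DMSO, 10.39 and 10.19 with RA) to GRPR (7.60 and 8.03 with DMSO, 3.31 and 3.86 with RA).

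Among the RA receptors and their coregulators, 5 of 18 measured genes rose and none fell, with a median of 0.24 (log2 difference) against -0.03 over all genes. RARB, the inducible receptor, read 3.90 and 2.70 with DMSO and 9.92 and 9.60 with RA, a difference of 6.46 (SE 0.35, adjusted p = 3.14e-05). All 14 of its rows were higher with RA in both pairs. NR2F1 (COUP-TFI), an orphan receptor of the developing brain, rose from 5.23 and 4.74 to 8.07 and 7.74 (2.92, SE 0.28). NRIP1 (RIP140), a corepressor that binds liganded receptors, rose by 1.58 (SE 0.16), and NR6A1 (GCNF), an orphan receptor that represses POU5F1, by 1.33 (SE 0.17). RARA, the widely expressed receptor, passed by 1.25 (adjusted p = 0.0289) but not without RA GF117 (0.108), RA GF120 (0.0653), DMSO GF117 (0.141) or DMSO GF120 (0.137). RARG differed by -0.02 (SE 0.32, adjusted p = 0.99), and the partners RXRA, RXRB and RXRG by 0.18, 0.19 and 0.43, none of which passed.

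In the list of retinoid synthesis, transport and breakdown, 7 of 27 genes rose and 2 fell (median 0.02). CYP26A1, the main RA hydroxylase, read 5.68 and 5.40 with DMSO and 10.33 and 10.29 with RA, 27.3-fold higher (4.77, SE 0.25, adjusted p = 3.14e-05). CRABP2, which hands RA to its receptors, was already bright at 8.46 and 8.68 and reached 11.80 and 11.69 (3.17, SE 0.13). DHRS3, which reduces retinal back to retinol, rose from 7.16 and 7.26 to 9.32 and 9.36 (2.13, SE 0.16). The genes that store, degrade and carry retinoids thus did not move as a block. BCO1, which cleaves beta-carotene to retinal, rose from 3.77 and 3.83 to 8.28 and 8.04 (4.35, SE 0.26), from dim. LRAT, which esterifies retinol for storage, fell from 9.53 and 9.39 to 7.77 and 7.95 (-1.60, SE 0.17, adjusted p = 0.000703). The remaining calls of the list turned on single arrays. CYP26B1 (2.02) was lost without DMSO GF120 (adjusted p = 0.0634), STRA6, the retinol importer (1.18), without RA GF120 (0.0648), DMSO GF117 (0.111) or DMSO GF120 (0.074), and CRABP1 (1.00) without RA GF120 (0.0766), DMSO GF117 (0.0734) or DMSO GF120 (0.122). ALDH1A3, which makes RA from retinal (-1.14), was lost without DMSO GF117 (0.078) or DMSO GF120 (0.0763). The list then held 4 genes higher without DMSO GF120 and 5 without RA GF120 or DMSO GF117. CYP26C1, ALDH1A1 and ALDH1A2 differed by 0.02, -0.49 and -0.15 and did not pass.

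HOX genes answered by their place in the clusters. Of the 13 measured genes of paralogue groups 1 to 5, at the 3′ end of the clusters, 10 rose and 0 fell, with a median of 2.91. Of the 7 genes of groups 6 to 8, 1 rose (median 0.07). Of the 16 genes of groups 9 to 13, 1 passed higher and 2 lower (median -0.15).

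In the HOXA cluster, HOXA5 read 1.85 and 3.06 with DMSO and 8.23 and 8.27 with RA (5.79, SE 0.36, adjusted p = 5.01e-05). HOXA2 read 2.58 and 3.0 against 8.22 and 7.47 (5.06, SE 0.37), and HOXA3 3.34 and 4.15 against 7.58 and 7.18 (3.64, SE 0.32). The DMSO means of all 3 were dim, and their groups were well separated with RA. HOXA4, between HOXA3 and HOXA5, read 5.88 and 6.27 against 6.37 and 6.28 on 3 rows (0.25, SE 0.23, adjusted p = 0.714), with overlap of its groups only narrowly avoided. HOXA7 differed by 0.77 (SE 0.39), HOXA6 by -0.16, HOXA9 by -0.08, HOXA10 by -0.21, HOXA11 by -1.08 (1 row) and HOXA13 by -0.22, and none passed.

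In the HOXB cluster, HOXB1 rose from 4.59 and 4.72 to 8.58 and 8.68 (3.98, SE 0.25), 1 of the most even rises over the 4 arrays. HOXB2 went from 3.86 and 5.06 to 9.12 and 9.18 (4.70, SE 0.36), and HOXB3 from 4.39 and 4.54 to 6.21 and 5.97 (1.62, SE 0.25). Beyond these 3 neighbours the cluster was flat at its middle. HOXB4 and HOXB5 differed by 0.28 and 0.43, HOXB6 to HOXB9 by -0.30 to 0.45, and none passed. HOXB13, at the far 5′ end, passed by 1.87 (adjusted p = 0.0138) but not without RA GF117 (0.0611) or DMSO GF120 (0.0842).

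In the HOXD cluster, HOXD3 rose from 3.85 and 3.82 to 8.01 and 7.68 (4.01, SE 0.26), HOXD4 from 4.79 and 5.27 to 7.62 and 7.34 (2.45, SE 0.24) and HOXD1 from 5.87 and 6.38 to 7.93 and 8.08 (1.87, SE 0.28). HOXD8 rose from 4.17 and 3.87 to 6.48 and 6.38 (2.41, SE 0.28), the only gene of groups 6 to 8 that passed. The transcripts LOC100129455 and LOC401021 rose with them, so that 6 neighbouring measured genes from LOC100129455 to HOXD1 rose in a run, the longest run of called neighbours among the genes tested. At the other end of the cluster HOXD11 (-1.46) and HOXD13 (-0.97) passed as lower with all arrays. HOXD11 was not called without RA GF120 (adjusted p = 0.0568), DMSO GF117 (0.114) or DMSO GF120 (0.0821), nor HOXD13 without RA GF120 (0.0571), DMSO GF117 (0.0909) or DMSO GF120 (0.135). In the HOXC cluster the 3′ gene HOXC4 rose from 3.26 and 3.38 to 6.22 and 6.23 (2.91, SE 0.31), next to the transcript FLJ12825 (4.13). The sizes of HOX rises depend on which exon rows count: with a stricter filter on dim rows they were 2.35 for HOXA5, 1.90 for HOXA2, 1.5 for HOXA3, 0.71 for HOXB3, 0.58 for HOXC4 and 0.48 for HOXD8. The calls of HOXB3 (adjusted p = 0.116), HOXC4 (0.462), HOXD8 (0.421) and HOXD11 (0.196) were lost under that filter, and with an offset of 16 HOXC4 was at 1.8.

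**Figure D3:**
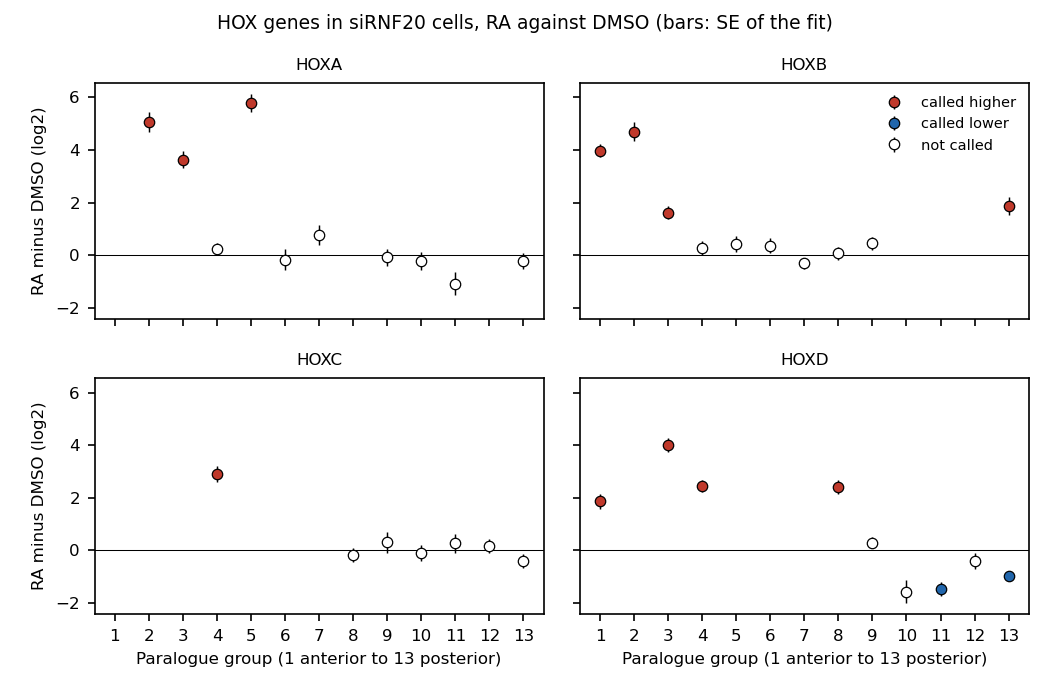
Each panel is a HOX cluster, with the paralogue group on the horizontal axis and the RA minus DMSO difference (log2) in siRNF20 cells on the vertical axis; bars are the SE of the fit, and red, blue and white mark genes called higher, called lower and not called. Red points fill groups 1 to 5, where 10 of 13 measured genes rose, while of the 16 genes of groups 9 to 13 only HOXB13 is red and only HOXD11 and HOXD13 are blue.

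HOX proteins bind DNA together with TALE homeobox proteins, and 3 of the 16 measured TALE genes rose (median 0.24), with none lower. MEIS2 went from 4.14 and 4.87 to 9.67 and 9.83 (37.9-fold, SE 0.31 on the log2 scale). MEIS1 rose by 2.42 (SE 0.24) and PKNOX2 by 1.84 (SE 0.20). PBX2 and PBX3 differed by 0.21 and 0.54 and did not pass.

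Genes of the undifferentiated state fell in part. Among pluripotency factors 6 of 21 fell and 0 rose (median -0.44). NANOG read 9.96 and 9.88 with DMSO and 7.19 and 7.14 with RA (-2.76, SE 0.16, adjusted p = 3.38e-05), on 2 rows. POU5F1 (OCT4) read 7.75 and 7.50 against 4.62 and 5.73 (-2.46, SE 0.33, adjusted p = 0.00272), on 3 rows. Both have near-identical processed copies in the genome, so their rows may mix loci. PRDM14, a repressor that guards the germ and stem cell state, fell from 8.32 and 8.71 to 6.34 and 6.36 (-2.16, SE 0.23). KLF4 fell by 2.16 (SE 0.26) and ZSCAN10 by 2.07 (SE 0.18). OTX2 fell by 1.37, a call lost without DMSO GF120 (adjusted p = 0.0643).

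SOX2 stood outside this pattern. It read 10.49 and 10.49 with DMSO and 10.69 and 10.73 with RA (0.22, SE 0.11, adjusted p = 0.389). Its groups did not overlap, in the upward direction, as for 18.1% of all genes. SALL4, a zinc finger partner of OCT4, differed by -0.14 (SE 0.13, adjusted p = 0.716). LIN28A, which blocks let-7 maturation, was at 11.50 and 11.50 with DMSO and 11.85 and 11.68 with RA (0.27, SE 0.10, adjusted p = 0.231), and LIN28B differed by 0.01 (SE 0.19). None of these 4 passed at 72 hours, while NANOG, POU5F1 and PRDM14 had fallen in the same RNA.

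Of 17 stem cell RNA-binding and DPPA genes 7 fell and 0 rose (median -0.48). L1TD1, a LINE-1-derived RNA-binding protein, fell from 9.60 and 9.63 to 7.26 and 6.89 (-2.54, SE 0.18). POLR3G, the RNA polymerase III subunit of undifferentiated cells, fell from 9.30 and 9.16 to 6.68 and 6.56 (-2.61, SE 0.17). DPPA2 fell from 7.61 and 7.21 to 4.59 and 4.77 (-2.73, SE 0.26). ESRP1, an epithelial splicing factor, fell by 1.28 (SE 0.18), and PHC1, a Polycomb subunit, by 2.12 (SE 0.29) on 1 row. TERF1 (-1.48) was not called without DMSO GF117 (adjusted p = 0.0814). DPPA4, the partner of DPPA2, was at -0.71 (adjusted p = 0.049), and lost the call without RA GF120 (0.182), DMSO GF117 (0.257), DMSO GF120 (0.253) or either siLacZ DMSO array (0.0836 and 0.0857). The 2 DPPA partners, neighbours on their chromosome, thus differed in the size of their fall.

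Of 18 stem cell surface antigens 5 fell and 0 rose (median -0.49). CD9, a tetraspanin used to sort stem cells, fell from 10.89 and 11.25 to 8.32 and 9.03 (-2.39, SE 0.22). THY1 fell by 1.34 (SE 0.18), F11R (JAM-A) by 1.17 (SE 0.15) and LCK by 2.21 (SE 0.33). EPCAM fell by 1.19, a call lost without DMSO GF120 (adjusted p = 0.0606). PODXL, a sialomucin of the stem cell surface, read 10.07 and 10.50 with DMSO and 10.24 and 10.43 with RA (0.05, SE 0.16, adjusted p = 0.935). DNMT3B, the de novo DNA methyltransferase of early embryos, fell from 10.74 and 10.82 to 9.82 and 9.42 (-1.16, SE 0.15), while DNMT3A differed by -0.04 (SE 0.18).

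NODAL and LEFTY genes split in both directions: 3 of 17 rose and 2 fell (median -0.02). LEFTY2 rose from 5.94 and 5.73 to 9.72 and 9.43 (3.74, SE 0.19), and its neighbour LEFTY1 from 5.87 and 6.22 to 8.49 and 8.56 (2.48, SE 0.20). Both encode secreted inhibitors of NODAL. The co-receptor CRIPTO, on 2 rows, fell from 10.21 and 10.48 to 8.02 and 8.63 (-2.02, SE 0.21), and the ligand GDF3 from 10.58 and 10.63 to 8.62 and 8.92 (-1.84, SE 0.16). The inhibitors were thus higher and the co-receptor lower in the same arrays. CRIPTO and the CRIPTO3 copy are near-identical and cannot be separated with certainty. NODAL itself read 3.62 and 4.96 with DMSO and 4.13 and 4.91 with RA (0.23, SE 0.47). ACVR2A, the third gene to pass higher (0.77), was lost without RA GF117 (adjusted p = 0.0939), RA GF120 (0.0968), DMSO GF117 (0.116), DMSO GF120 (0.263) or either siLacZ DMSO array (0.0555 and 0.0558).

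In FGF signalling 7 of 34 genes fell and 1 rose (median -0.08). SPRY4, a feedback inhibitor of the RAS and ERK cascade, fell from 8.21 and 7.94 to 5.35 and 5.17 (7.04-fold lower, SE 0.26 on the log2 scale). SPRY2 fell by 1.87 (SE 0.17), ETV4, an ETS factor downstream of FGF receptors, by 1.77 (SE 0.17), and IL17RD (SEF), a further inhibitor, by 1.56 (SE 0.20). The exception was DUSP6, the phosphatase of ERK and a target of the same pathway, which rose from 7.98 and 6.89 to 10.33 and 10.23 (2.84, SE 0.44, adjusted p = 0.00618). SPRY1 (-1.09) was lost without DMSO GF117 (adjusted p = 0.0734). The calls of FGF2 (-0.89) and ETV5 (-1.19) were each lost without any of the 4 siRNF20 arrays (adjusted p 0.053 to 0.129 for FGF2 and 0.0682 to 0.279 for ETV5). FGF4, a ligand of stem cells, was at -0.96 (SE 0.23, adjusted p = 0.0547) and did not pass. Without DMSO GF117 the list held 4 genes lower.

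Of 28 growth factor receptor tyrosine kinases 4 fell and 2 rose (median -0.11). Besides KDR, ERBB3 fell by 1.45 (SE 0.19) and ROR1 from 9.55 and 9.68 to 8.43 and 8.21 (-1.29, SE 0.16). PDGFRA passed by 1.60 but not without DMSO GF117 (adjusted p = 0.0534), and MERTK by 1.28 but not without RA GF117 (0.0683) or DMSO GF120 (0.136). In the ETS family 4 of 27 fell and 1 passed higher (median -0.11). ETS1, which is active in endothelium and blood, fell from 7.72 and 6.64 to 4.13 and 3.74 (-3.24, SE 0.37), with all 19 kept rows (of 22) lower in both pairs. Its chromosomal neighbour FLI1 went from 6.39 and 5.83 to 4.73 and 3.25 (-2.12, SE 0.45), a call lost without RA GF120 (adjusted p = 0.0775), DMSO GF117 (0.193), DMSO GF120 (0.0621) or either siLacZ DMSO array (0.0563 and 0.0559), and with no filter on dim rows (-0.94, 0.143). The difference of FLI1 was -1.38 without RA GF120 and -1.37 with an offset of 16. The ETS count was 2 without RA GF120, DMSO GF117 or DMSO GF120.

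Of 26 neural progenitor markers 8 passed higher and 1 lower, with a median of 0.50 against -0.03 over all genes. PAX6, the paired-box factor of the neural tube and eye, rose from 4.08 and 4.06 to 7.07 and 7.23 (3.08, SE 0.23, adjusted p = 0.000135). DACH1 rose by 1.98 (SE 0.26), NCAM1 by 1.66 (SE 0.21) and CDH2 (N-cadherin) from 7.65 and 7.57 to 9.06 and 9.05 (1.44, SE 0.16). Against them PTPRZ1, a phosphatase of radial glia, fell from 9.17 and 9.07 to 7.34 and 6.57 (-2.16, SE 0.24). Of the smaller rises, POU3F1 (1.13) was lost without DMSO GF120 (adjusted p = 0.0511). SOX3 (1.13) was lost without RA GF117 (0.0736), DMSO GF117 (0.111) or DMSO GF120 (0.105). The list held 5 genes higher without RA GF117 or DMSO GF117 and 4 without DMSO GF120.

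In the list of postmitotic neuron markers 6 of 45 rose and 2 fell, and the median was -0.06, close to that of all genes. DCX (doublecortin), a microtubule protein of migrating neurons, rose from 6.69 and 6.55 to 8.29 and 8.05 (1.55, SE 0.19). DPYSL5 rose by 1.85 (SE 0.21) and CNTN1, an axonal adhesion protein, by 1.78 (SE 0.27). ISL1, a factor of motor and sensory neurons, rose from 4.31 and 4.65 to 6.40 and 6.40 (1.92, SE 0.26). Among members of the list that did not pass, named after their values were seen, TUBB3 differed by 0.41 (SE 0.25), STMN2 by 0.39 (SE 0.45), SNAP25 by 0.84 (SE 0.32), GAP43 by -0.43 (SE 0.41) and SYP by -0.77 (SE 0.28). MAP2 (1.32) was lost without RA GF117 (adjusted p = 0.0528) or DMSO GF117 (0.111). L1CAM (-1.43) passed as lower and was lost without any of the 4 siRNF20 arrays (0.0607 to 0.134).

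Of 23 proneural bHLH and related factors 0 passed higher and 1 lower, ID3 (-1.22), with 6 at an unadjusted p below 0.05. The ID3 call was lost without RA GF120 (adjusted p = 0.0625), DMSO GF117 (0.139) or DMSO GF120 (0.0543). NEUROD1 and NEUROG2, which drive neurogenesis, differed by -0.02 (SE 0.26) and 0.17 (SE 0.27). Among 36 neural tube patterning factors 2 rose and 3 fell (median 0.07), and PAX6 alone kept its call with each array left out. GBX2, of the anterior hindbrain, passed by 1.20 but not without DMSO GF117 (0.0838) or DMSO GF120 (0.0824), and was at 0.79 with the mean over rows. With OTX2 of the forebrain and midbrain lower and GBX2 higher, the signs of the pair were opposite within GF117 and within GF120. OLIG3 (-1.92) was lost without DMSO GF120 (0.0589) and PAX5 (-1.52) without DMSO GF117 (0.098) or with the stricter filter on dim rows (-0.64, 0.287).

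Of 67 axon guidance genes 12 were called higher and 3 lower (median 0.07), of which 9 and 1 kept the call with each array left out. SEMA3C, a secreted semaphorin, read 3.03 and 2.87 with DMSO and 8.17 and 7.73 with RA (5.0, SE 0.27, adjusted p = 3.14e-05). Of its 22 kept rows (of 27), 21 were higher in both pairs. ROBO2, the SLIT receptor, read 3.52 and 3.87 against 8.67 and 7.95 (4.62, SE 0.29). PLXNA2, a semaphorin receptor subunit, rose from 5.50 and 5.82 to 9.25 and 9.30 (3.61, SE 0.19, 41 rows). SEMA6D rose by 2.83 (SE 0.23), SEMA3E by 2.04 (SE 0.28) and the co-receptor NRP2 by 1.56 (SE 0.20). Among ephrins, EFNB2 rose by 2.31 (SE 0.21) and its receptor EPHB3 by 1.66 (SE 0.26), while EPHA1 fell from 8.06 and 7.83 to 5.87 and 6.03 (-1.99, SE 0.25). RGMB, a BMP co-receptor of the repulsive guidance family, rose by 2.23 (SE 0.21). NRP1 (1.22) was lost without RA GF117 (adjusted p = 0.0713), DMSO GF117 (0.101) or DMSO GF120 (0.106), and SEMA7A (-1.35) without DMSO GF117 (0.078). SEMA4A, whose promoter held the DR2, was at -0.90 (adjusted p = 0.0428), a call lost without any of the 6 arrays left out in turn (0.0799 to 0.321).

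Neurotrophic factors and their receptors had 6 of 17 genes passing higher and 1 lower, with a median of 0.00. GFRA1, the receptor of GDNF, rose from 5.52 and 6.05 to 9.02 and 9.07 (3.26, SE 0.24, adjusted p = 0.000124). Its ligand GDNF was far apart on the RA arrays, at 7.56 and 5.91 against 4.53 and 4.54 with DMSO (2.20, SE 0.46). That call was lost without RA GF117 (adjusted p = 0.0814), DMSO GF117 (0.116) or DMSO GF120 (0.102), and with the stricter filter (1.04, 0.413), and the difference was 1.37 without RA GF117. RET, the kinase that GFRA1 presents GDNF to, passed as lower (-1.09) and was lost without any of the 4 siRNF20 arrays (0.0614 to 0.145). CNTFR (1.54) was lost without DMSO GF117 (0.0601), and NTRK3 (1.47) without RA GF117 (0.0883) or DMSO GF117 (0.116), or with no filter on dim rows (0.89, 0.136). The count of members higher was 2 without RA GF117, 1 without DMSO GF117 and 3 without DMSO GF120, so the list's share rests on these arrays.

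**Figure D4:**
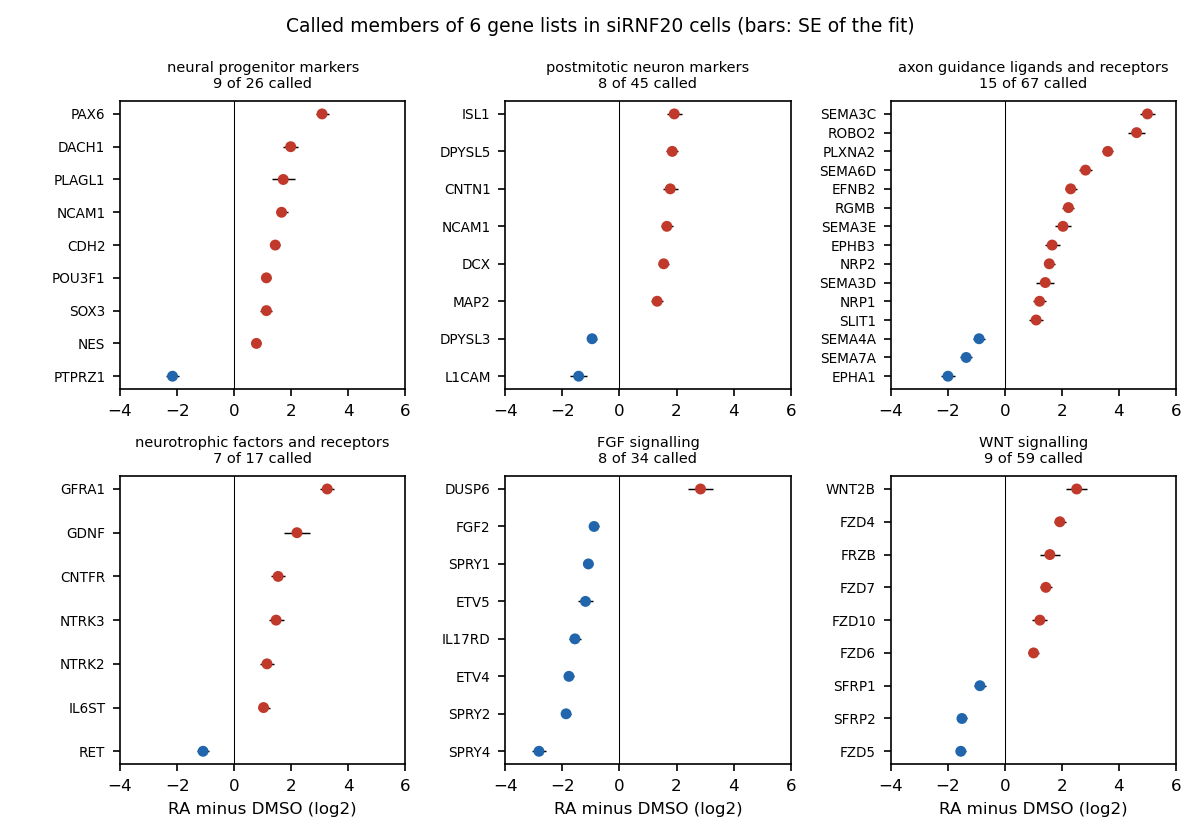
Each panel lists the called members of a gene list, with the RA minus DMSO difference (log2) in siRNF20 cells on the horizontal axis and the SE of the fit as bars; red is higher and blue lower. Axon guidance (15 of 67 called) reaches from SEMA3C at 5.0 to EPHA1 at -1.99, and FGF signalling (8 of 34 called) is blue but for DUSP6 at 2.84.

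Of 57 voltage-gated ion channels 0 rose and 2 passed as lower (median -0.14), and of 56 neurotransmitter receptors 1 passed higher and 2 lower (median -0.08), shares of calls close to the 3.92% of all genes. An unadjusted limma p below 0.05 was more common than over all genes. It was found for 14 of the channels and 18 of the receptors, against 2868 of the 18732 genes. GABRA5, a GABA-A receptor subunit, fell from 8.15 and 8.33 to 6.52 and 6.39 (-1.78, SE 0.19). Of 49 neuronal adhesion and synapse-organising genes 3 passed higher and 2 lower (median 0.05). SLITRK6 rose from 3.17 and 3.34 to 6.44 and 6.22 (3.08, SE 0.46), or by 1.92 with an offset of 16 added before the logarithm, and NLGN4X, a neuroligin, fell from 9.32 and 9.29 to 7.90 and 7.91 (-1.39, SE 0.15). Both are surface proteins of neurons and went opposite ways. Of 45 protocadherins 4 passed higher (median 0.11), with PCDH7 at 1.56 (SE 0.23). The protocadherin count was 1 without RA GF117, DMSO GF117 or DMSO GF120. Among 45 neuropeptides and their receptors 5 passed lower and 1 higher (median -0.06). Next to GRPR, the neuropeptide galanin (GAL) fell from 9.06 and 9.05 to 7.06 and 7.38 (-1.83, SE 0.18), and the count of that list was 2 lower without RA GF117, DMSO GF117 or DMSO GF120.

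In WNT signalling 6 of 59 genes were called higher and 3 lower (median 0.08), of which 3 and 2 kept the call with each array left out, and the frizzled receptors divided. FZD4 rose from 6.94 and 6.72 to 8.75 and 8.78 (1.93, SE 0.20) and FZD7 from 7.95 and 8.35 to 9.71 and 9.46 (1.44, SE 0.20). FZD5 fell from 8.04 and 8.11 to 6.58 and 6.48 (-1.54, SE 0.18). FZD6 (1.01) was lost without DMSO GF117 (adjusted p = 0.131), and FZD10 (1.23) without RA GF117 (0.152), DMSO GF117 (0.142) or DMSO GF120 (0.165). The ligand WNT2B rose by 2.52 (SE 0.36), against a difference of 0.86 with the stricter filter on dim rows, where its call was lost (adjusted p = 0.0726). SFRP2, a secreted WNT antagonist, fell from 9.69 and 9.78 to 8.14 and 8.35 (-1.5, SE 0.18). The list held 3 genes higher without DMSO GF117, and 4 without RA GF117 or DMSO GF120.

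In the Hedgehog pathway 3 of 17 rose (median 0.35), all of them at the cell surface. CDON, a co-receptor of Hedgehog ligands, rose from 6.47 and 6.69 to 8.88 and 9.13 (2.43, SE 0.19). Its relative BOC (1.52) was lost without DMSO GF120 (adjusted p = 0.0801) and the receptor PTCH1 (1.20) without DMSO GF117 (0.0564). GLI1, a transcriptional target of the pathway, differed by 0.14 (SE 0.26, adjusted p = 0.887). Of 40 BMP and TGF-beta genes 1 rose (2.5%), near the 1.79% of all genes called higher. This was the BMP antagonist NOG (noggin), from 6.24 and 6.02 to 7.68 and 7.93 (1.68, SE 0.23). Of 32 NOTCH genes 1 passed higher (3.12%, against 1.79% of all genes). MAML3 was that gene (1.66, adjusted p = 0.0185), and it was lost without RA GF117 (0.088), DMSO GF117 (0.0899) or DMSO GF120 (0.0868).

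Of 30 mesoderm and endoderm factors 2 rose (median 0.01), against 1.79% of all genes called higher: ISL1, named above among the neuron markers, and MEOX1, a homeobox factor of somites, from 4.6 and 4.31 to 6.05 and 6.55 (1.84, SE 0.28). TBXT, GATA4, GATA6 and SOX17 differed by -0.18, -0.30, 0.41 and -0.25, and none passed. Of 25 trophoblast and extraembryonic genes 5 passed higher (median 0.14). TFAP2A, which also marks neural crest, rose from 5.16 and 5.35 to 7.75 and 7.69 (2.47, SE 0.24), against a difference of 1.19 with the stricter filter on dim rows, where its call was lost (adjusted p = 0.062). HAPLN1, a link protein of the matrix, rose from 4.06 and 3.55 to 6.89 and 7.72 (3.51, SE 0.35). GATA3 (1.55, or 0.98 with the mean over rows) was lost without any of the 4 siRNF20 arrays (adjusted p 0.0537 to 0.17) or with the stricter filter (0.51, adjusted p = 0.397), and the list held 2 genes higher without DMSO GF117 and 3 without DMSO GF120. The defining trophoblast markers CGA, GCM1, ELF5, KRT7 and PSG8 had medians of 5.0 and 4.87 with DMSO and 4.79 and 5.35 with RA, and none of the 5 was called.

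Cadherins moved both ways. Of 31 cadherin and EMT genes 4 rose and 4 fell (median -0.01). Besides CDH2, the genes that rose were ZEB2, a repressor of E-cadherin, from 4.41 and 4.92 to 8.21 and 7.66 (3.27, SE 0.27), CDH20 by 2.98 (SE 0.28) and CDH5 from 4.25 and 3.86 to 6.27 and 6.90 (2.53, SE 0.30). CDH3 (P-cadherin) fell from 9.01 and 9.35 to 6.93 and 7.55 (-1.94, SE 0.23). CDH1 (E-cadherin) was lower on both RA arrays, at 8.0 and 8.95 against 9.40 and 9.75, and did not pass (-1.10, SE 0.28, adjusted p = 0.0689). VIM, the mesenchymal intermediate filament, differed by -0.01 (SE 0.21). CDH11 (-1.14) was lost without DMSO GF117 (0.101) or DMSO GF120 (0.065), and the list held 2 genes lower without DMSO GF117. Of 40 keratin, claudin and junction genes 5 passed lower and 2 higher, of which GJA1 (connexin 43) kept its call, from 10.81 and 11.04 to 10.02 and 9.91 (-0.96, SE 0.13). That list held 1 gene lower without DMSO GF120 and 2 without RA GF117 or DMSO GF117.

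Among 69 extracellular matrix genes 6 were called higher and 3 lower (median 0.00), of which 4 and 1 kept the call with each array left out. The hyaluronan synthases HAS2 and HAS3 went opposite ways. HAS2 rose from 5.98 and 6.07 to 9.25 and 8.44 (2.82, SE 0.27), and HAS3 fell from 7.77 and 7.35 to 5.46 and 5.30 (-2.18, SE 0.22; -1.42 with the mean over rows). LAMA4, a laminin chain of vessels, rose from 4.26 and 3.90 to 6.94 and 6.48 (2.63, SE 0.28), and GPC6, a glypican, by 1.31 (SE 0.16). TNC, the matrix protein tenascin, passed as lower (-1.42) and was lost without DMSO GF117 (adjusted p = 0.116) or DMSO GF120 (0.0508), which left 1 gene of the list lower in both cases. IGFBP5, a binding protein of insulin-like growth factors, rose from 3.79 and 5.10 to 8.55 and 9.55 (24.3-fold, SE 0.43 on the log2 scale). In the list of 30 imprinted genes 4 passed higher and 1 lower (median 0.08). H19, the maternally expressed noncoding RNA, rose from 5.40 and 5.57 to 9.59 and 10.45 (23.3-fold, SE 0.29 on the log2 scale), with all 17 kept rows (of 18) higher in both pairs. IGF2, which shares its enhancers, read 5.65 and 4.6 with DMSO and 4.69 and 5.02 with RA (-0.27, SE 0.37). The imprinted list held 1 gene higher without DMSO GF117 or DMSO GF120 and 2 without RA GF117.

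Of 54 DNA replication genes 0 were called (4 at an unadjusted p below 0.05, median -0.13), and of 57 mitosis genes 0 (3 unadjusted, median -0.11). Over all 18732 genes 3.92% were called and 2868 had an unadjusted limma p below 0.05. In lists of this size, 0 calls lies near the share of all genes. Among 26 replication-dependent histones 0 were called and 0 had an unadjusted p below 0.05. MKI67, MCM2 and PCNA differed by -0.17 (SE 0.24), 0.09 (SE 0.16) and -0.04 (SE 0.18). The median SE over all genes was 0.24, and every call in the fit had a difference of at least 4.24 times its SE, so a difference below that multiple could not be called with 2 arrays a group. In the G1 list 2 of 37 passed higher and 2 lower (5.41% each, median -0.03), against 1.79% and 2.13% of all genes. The 2 lower kept the call with each array left out. MYC, on 2 rows, fell from 8.43 and 8.27 to 6.37 and 6.22 (-2.06, SE 0.27), and CCND1 (cyclin D1) from 9.85 and 9.70 to 8.47 and 8.13 (-1.47, SE 0.17). Of the 2 higher, MXD1 (1.29) and RB1 (0.96), neither kept it. Both were also lost in the limma fit to the 4 siRNF20 arrays alone (adjusted p = 0.0853 and 0.0752). CCND2 was at 11.51 and 11.41 with DMSO and 11.50 and 11.26 with RA (-0.09, SE 0.12), and the inhibitors CDKN1A, CDKN1B and CDKN1C differed by 0.53, 0.55 and -0.03 without passing.

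Death and stress genes held a few clear members. PMAIP1 (NOXA), a BH3-only activator of apoptosis, fell from 9.38 and 9.27 to 6.58 and 5.59 (9.43-fold lower, SE 0.28 on the log2 scale), with all 8 rows lower in both pairs. BMF, also a BH3-only gene, rose from 5.55 and 5.48 to 7.14 and 7.09 (1.60, SE 0.22). In the 32 p53 target genes 3 passed higher and 1 lower (median 0.07), with BTG2 at 1.85 (SE 0.25) and TP53INP1 at 1.68 (SE 0.23). In the ATF4 and unfolded protein response list 6 of 40 passed lower and 1 higher, with a median of -0.30 and 19 at an unadjusted p below 0.05. MTHFD2, a mitochondrial folate enzyme, fell from 10.52 and 10.39 to 9.60 and 9.36 (-0.98, SE 0.14), and VLDLR rose by 1.21 (SE 0.15). The asparagine synthetase ASNS (-1.10) was lost without RA GF120 (adjusted p = 0.0673) or DMSO GF117 (0.174), and the list held 3 genes lower without RA GF120, 1 without DMSO GF117 and 4 without DMSO GF120.

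In glycolysis 2 of 25 passed lower (median -0.17), with HK1 (hexokinase 1) from 9.24 and 9.22 to 7.46 and 7.89 (-1.55, SE 0.21). Metallothioneins, the zinc- and copper-binding proteins of chromosome 16, made the longest run of neighbours called lower: MT2A, MT1L, MT1E and MT1M. MT2A fell from 11.42 and 11.14 to 10.47 and 10.42 (-0.84, SE 0.12), and MT1X, outside that run, from 9.97 and 10.12 to 8.56 and 8.88 (-1.32, SE 0.15). These genes are near-identical copies, so rows of one may read another. The other calls of the run were lost without RA GF117 (adjusted p = 0.158 for MT1E and 0.0939 for MT1L), RA GF120 (0.0786 for MT1M), DMSO GF117 (0.159 for MT1E, 0.193 for MT1M and 0.105 for MT1L) or DMSO GF120 (0.273 for MT1E and 0.143 for MT1L), and MT1E also without either siLacZ DMSO array (0.0809 and 0.0834). In the MHC class I and interferon list 1 of 33 rose and 1 fell (3.03% each, against 1.79% higher and 2.13% lower over all genes). IFI16, a nuclear DNA sensor, rose from 5.97 and 6.47 to 9.46 and 9.18 (3.10, SE 0.22), and IFITM1 fell from 10.17 and 10.35 to 8.79 and 8.95 (-1.39, SE 0.15).

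Of 27 genes of H2B ubiquitylation, the reaction RNF20 carries out, and of the PAF complex 0 rose and 1 passed lower (median -0.01, 1 at an unadjusted p below 0.05), a share close to the 3.92% of all genes. That gene was USP44, a deubiquitinase of H2B, which went from 10.39 and 10.05 with DMSO to 9.42 and 8.81 with RA (-1.11, SE 0.22, adjusted p = 0.0229). The groups did not overlap, as for 24.8% of all genes in the lower direction. The call was lost without RA GF120 (0.0863) or DMSO GF117 (0.175), or without the intensity trend of the fit (0.0945). Of 21 genes of H3K4 and H3K79 methylation 0 were called (4 at an unadjusted p below 0.05, median 0.11). Of 40 genes of Polycomb, DNA methylation and TET 2 fell, PHC1 and DNMT3B, and 1 passed higher (median 0.04), and EZH2 and TET1 differed by 0.19 and -0.37. Of 68 ribosomal protein genes 1 passed higher and 1 lower (1.47% each, median 0.04), near the 1.79% and 2.13% of all genes. Of the 16 reference genes 0 were called (3 at an unadjusted p below 0.05, median -0.06).

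**Figure D5:**
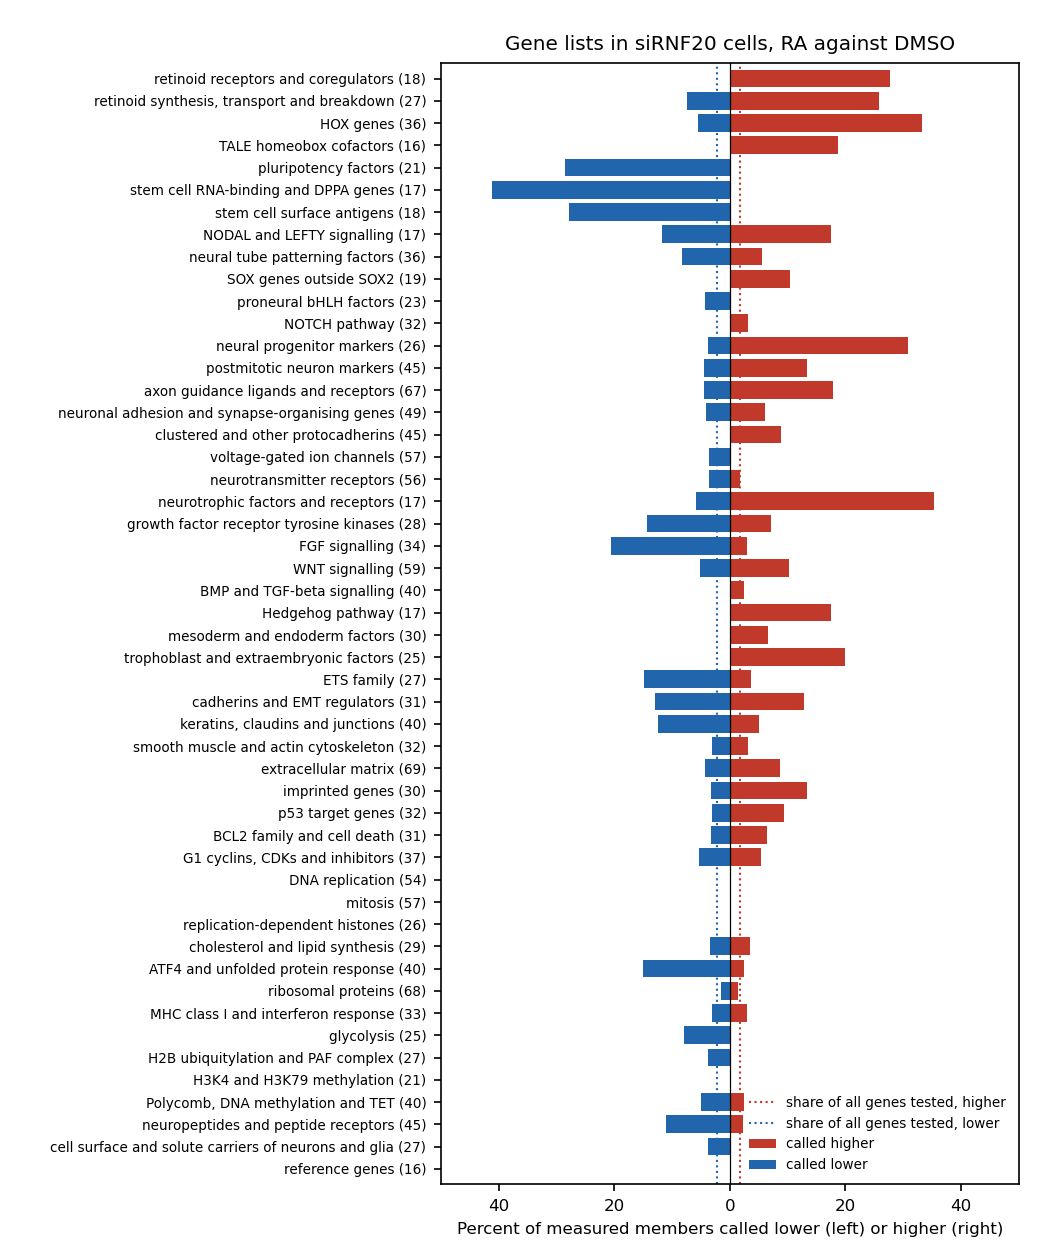
Bars give, for each gene list with its number of measured members in brackets, the percent called lower (left, blue) and higher (right, red) with RA in siRNF20 cells; dotted lines mark the share of all 18732 genes, 1.79% higher and 2.13% lower. Red bars are long for retinoid, HOX, neural progenitor and neurotrophic genes, blue bars for the 3 stem cell lists and FGF signalling, and DNA replication and mitosis have none.

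Whether any of these responses was particular to RNF20-depleted cells was tested as the difference between the RA response with siRNF20 and with siLacZ, where 1 RA array of siLacZ cells remained. Of 18732 genes 0 passed (0.0%), with 737 at an unadjusted p below 0.05 and a smallest adjusted p of 0.453. With 1 array on a side this says little about equality. Of the 734 genes called in siRNF20 cells, 728 (99.2%) had the same sign in siLacZ cells, against 67.3% of all genes, and 725 (98.8%) within GF120, where each arm has its own DMSO array. The sizes stood as follows, siRNF20 first. RARB differed by 6.46 and 5.55, CYP26A1 by 4.77 and 4.59, HOXA5 by 5.79 and 4.73, PAX6 by 3.08 and 3.54, NANOG by -2.76 and -3.82 and POU5F1 by -2.46 and -1.83. For SOX2 the signs differed, at 0.22 and -0.62, a difference of 0.84 (SE 0.17, adjusted p = 0.756). GJA1 fell by 0.96 with siRNF20 against -2.36 with siLacZ (difference 1.40, SE 0.21, adjusted p = 0.453), and the imprinted MEST was at 1.18 against 3.01 (-1.83, SE 0.31, adjusted p = 0.497), its call in siRNF20 cells being lost without DMSO GF117 (0.0551) or DMSO GF120 (0.0848). With the GF number as a block, by limma, both differences passed, GJA1 at 1.44 (adjusted p = 0.0349) and MEST at -1.98 (adjusted p = 0.0349). The widest differences, from EPCIP-AS1 (-3.66) and FCER1A (-2.99) to LOC644634 (3.29) and SLC46A3 (3.41), did not pass. Each of these genes rested on 1 row. On the lone RA array of siLacZ cells LOC644634 and SLC46A3 were dim, at 1.69 and 1.62.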

How the data were processed

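Total RNA of NTera2/D1 cells was labelled with biotin by the array maker's standard protocol, per the labels' protocols. The authors deposited 1 linear intensity per array row. How they corrected background, summarised or scaled the intensity values, and the build of the design, are not stated in the labels. The arrays' like medians (17.2 on 7 of 8) show only that the deposited values share a scale. Of 1384231 rows, 354600 had 1 gene symbol in the platform annotation, 14898 had several and 1014733 had none listed. Of 19497 symbols, 16426 were current in RefSeq, 2950 were updated and 121 kept.

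Rows were taken to log2, and rows with a mean at or below 3.97 left out (277621 stayed). Gene values, the median of rows, were fitted with limma 3.58.1 in R 4.3.3 (group means of 7 arrays, trended prior), with Benjamini-Hochberg adjustment over 18732 genes, and the code was tested on simulated data. An exact permutation test of 2 against 2 arrays cannot go below p = 0.333. The GF number is shared by samples of each group, and the labels do not say what it stands for, so the fit has no block.

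Members and gene lists were chosen with earlier results of these data known. Named were the 15 highest and 15 lowest called genes of equal sign in both GF numbers, up to 5 called genes a list by size, all HOX genes, RNF20, RNF40, USP44, POU5F1, SOX2, NANOG, and the 5 highest and 5 lowest differences between responses. Other names were chosen after their values were seen.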

Additional observations from a re-analysis of the deposited data

How the results depend on the processing

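The sign of the RA difference was the same for all 734 called genes in every setting but no filter on dim rows (731) and the stricter filter (705, with fewer genes tested). Calls were 579 with the 4 siRNF20 arrays alone (562 of the 734 among them), 728 with an offset of 16 (715), 601 with no filter (555), 643 with the stricter filter (544), 844 with the mean over rows (630), 850 with quantile normalization (721) and 506 without the intensity trend (493), where 246 were lower. With all 8 arrays 0 were called (0 higher, 0 lower, 501 at an unadjusted p below 0.05). With the replicate number as a block, which the labels do not explain, 1959 were called (772 higher, 1187 lower) over 7 arrays and 2316 (920 higher, 1396 lower) over 4. All 734 were among both. Deviations of same-numbered arrays correlated at 0.297 to 0.364, and 4 differences between responses then passed: GJA1 (1.44), LMO3 (-2.33), MEST (-1.98) and RPL9 (1.10), the last a gene with many processed copies. With 1 array left out, where the lone array is assumed to vary like the others, 330 to 590 were called (190 to 335 higher, 129 to 346 lower), and 0 to 0 differences between responses. Single values turned sign for CNTNAP2 (0.32 with no filter), for IDO1 (0.04), KCNA1 (0.36) and PHLDA2 (0.04) with the stricter filter, and for RNF20 (0.03 without RA GF120 and 0.09 without DMSO GF117, from a range of -0.40 to 0.09), whose RA difference was never called. The cause was not tested. Depth in the sense of counts does not apply to arrays, where 25 genes called higher had a dim DMSO mean and 15 called lower a dim RA mean, so that the sizes of their changes are limited by background.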
